A study of Oryza sativa with 4 samples.

Results

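The nuclei described here are rice root tip nuclei in which the chromatin at the locus of LOC_Os01g15610, the gene the study uses as its marker of endodermis, was open. They were chosen by counts of Tn5 cut sites, the positions at which the transposase Tn5 cut accessible DNA inside a nucleus. Barcodes with 10000 to 60000 cut sites in peaks were taken as nuclei, and a nucleus was a member if it held 6 or more cut sites in the peak region chr1:8786232-8793564 and under 4 per 10000 cut sites at a pair of other loci, chr10:16864903-16885590 and chr5:15714589-15717880, which hold genes of the study's root hair list. By this rule 2431 of 39257 nuclei (6.19%) were members. They are called marker-open nuclei below, and the remaining 36826 nuclei of that depth are called the other nuclei.

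The 4 libraries are single-cell ATAC-seq (scATAC-seq) of nuclei from root tips of 5 mm, cut from rice seedlings of the cultivar Nipponbare that were 3 days old. The HS libraries, replicates 1 and 2, came from seedlings that were grown at 28 °C and then, by the study's results text, heated at 45 °C for 3 h. The Normal libraries, replicates 1 and 2, came from seedlings grown at 28 °C without heat. No transgene or mutant was used, the tip holds all tissues from the root cap upward, and the study states that its samples were handled in more than 1 batch without naming which. A batch that differed between the conditions cannot be told apart from heat.

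The endodermis is the innermost layer of the root's ground tissue and surrounds the stele, the core with the vessels. Its cells build the Casparian strip, a band in their walls that stops water and ions from passing between cells, so that solutes must cross a membrane before they reach the vessels. Its neighbours are the cortex outside and the stele inside, and the root hairs and the root cap lie farther out on the organ. In scATAC-seq a gene or a regulatory region that is in use in a cell type usually lies in open chromatin and is cut more often.

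The libraries held between 350206085 and 364736225 cut sites in 65218 to 66704 peaks each. The marker-open nuclei summed to 24861861 and 25116181 cut sites in HS replicates 1 and 2, against 13925943 and 15097184 in Normal replicates 1 and 2. All levels below are cut sites per 10000 cut sites of a class of nuclei in a library, and the 4 regions of the rule were left out of every result. The same barcode sequence occurred in a second library for 87 of the marker-open nuclei, and 6 of these were members in both. The deposited matrices hold all barcodes, no doublet caller was run here, and nuclei over 60000 cut sites were left out by the rule.

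The values that chose the nuclei are given as a description. The marker region stood at 2.62 and 2.63 per 10000 in the marker-open nuclei of the HS libraries and at 2.77 and 2.72 in those of the Normal libraries. In the other nuclei it stood at 0.198 and 0.202 in HS and at 0.175 and 0.186 in Normal. The median marker-open nucleus held 8 cut sites there in each of the 4 libraries. The limit at the root hair loci removed 22 and 21 nuclei in HS and 9 and 13 in Normal that had enough cut sites at the marker. Just inside the limit, at 6 cut sites, lay 306 and 298 nuclei in HS and 217 and 224 in Normal. Just outside it, at 4 cut sites, lay 441 and 487 nuclei in HS and 407 and 417 in Normal. Few nuclei had 5 cut sites, since both ends of a fragment are usually counted, and the class is therefore a range along a count and has no gap at its edge.

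Both HS libraries held a larger share of marker-open nuclei than the Normal libraries. They made up 8.42% (738 of 8762, exact 95% binomial interval 7.85 to 9.02%) and 8.25% (746 of 9043, 7.69 to 8.84%) of the nuclei in HS replicates 1 and 2. In Normal replicates 1 and 2 they made up 4.28% (458 of 10706, 3.90 to 4.68%) and 4.55% (489 of 10746, 4.16 to 4.96%). Both HS libraries lay above both Normal libraries, and the means of 8.34 ± 0.12% in HS and 4.41 ± 0.19% in Normal (SD, n = 2 each) differed by 3.92 points, a ratio of 1.89. With 2 libraries against 2, a two-sided exact permutation test gives p = 0.333, the smallest this design allows. The intervals cover counting error only. The study, which clustered the nuclei of these libraries, describes the share of cells in each cluster as comparable between the conditions. Its clusters were not chosen by this rule and were not compared with the members here.

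The rule counts cut sites without scaling, and the HS nuclei were deeper. The median was 32363.5 and 32617.5 cut sites per marker-open nucleus in HS against 28888 and 29221 in Normal, and 28188.5 and 28061 against 25083.5 and 24942 in the other nuclei. With every nucleus thinned at random to 10000 cut sites before the rule was applied, the shares were 0.867 and 0.829% in HS against 0.532 and 0.456% in Normal, a ratio of 1.72. With a limit of 3 marker cut sites per 10000 in place of 6 cut sites, they were 3.46 and 3.27% against 2.25 and 2.21%, a ratio of 1.51. The direction was the same in all of these counts, while the ratio ran lower once depth was held.

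**Figure D1:**
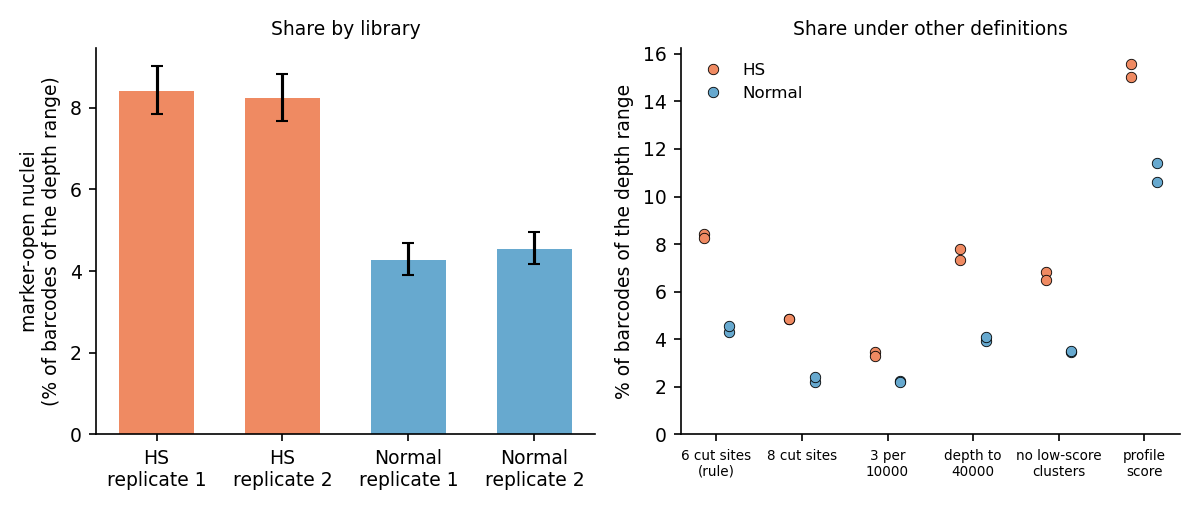
Left, marker-open nuclei as a percentage of all nuclei of 10000 to 60000 cut sites, 1 bar per library with its exact 95% binomial interval, HS left of Normal. Right, the same share by library under 6 definitions of a member, among them a limit of 3 marker cut sites per 10000 (3.46 and 3.27% in HS, 2.25 and 2.21% in Normal). The HS points lie above the Normal points in each. For the profile score, described below, regions and midpoints differ between the conditions, so its points do not compare HS with Normal.

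Whether nuclei with the marker locus open also shared the rest of their chromatin was measured away from that locus. A profile score was made for each nucleus as its cut sites per 10000 in regions that were higher in marker-open nuclei in the libraries of the other condition, so that the libraries that chose the regions were never those that were scored. It used 1882 regions for HS nuclei and 1581 for Normal nuclei, so scores can be compared within a condition only. Marker-open nuclei had median scores of 454 and 455 in HS and 392 and 388 in Normal. The other nuclei had medians of 142 and 141 in HS and 105 and 106 in Normal.

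The score rose in steps with the number of cut sites at the marker. The share of nuclei above the midpoint between the medians of both classes was 4.99 and 4.49% in HS and 3.05 and 3.75% in Normal where the marker had 0 cut sites. At 4 cut sites, just outside the rule, it was 52.6 and 49.1% in HS and 54.1 and 56.8% in Normal. At 6 cut sites, just inside, it was 75.5 and 72.8% in HS and 85.7 and 75.4% in Normal. At 8 it was 85.2 and 81.4% in HS and 94.0 and 90.2% in Normal, and above 12 it lay between 95.3 and 100% in the 4 libraries. The median score was 326 and 277 in HS and 280 and 294 in Normal at 4 cut sites, 437 and 449 in HS and 390 and 387 in Normal at 6, and 454 and 456 in HS and 399 and 386 in Normal at 8. It thus differed more between 4 and 6 cut sites than between 6 and 8 in each library.

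Neither class was uniform. Of the marker-open nuclei, 114 (15.4%) and 139 (18.6%) in HS and 49 (10.7%) and 71 (14.5%) in Normal scored below the midpoint, and they were the deeper ones, with medians of 42931.5 and 41153 cut sites in HS and 40070 and 41901 in Normal. Those above it had medians of 30872 and 31256 in HS and 28048 and 27767.5 in Normal. Of the other nuclei, 742 (9.25%) and 751 (9.05%) in HS and 728 (7.10%) and 809 (7.89%) in Normal scored above the midpoint, and these were shallow, with medians of 23112 and 23974 in HS and 19467.5 and 20605 in Normal. Counting every nucleus above the midpoint, whatever its marker count, gave 15.59 and 15.02% of nuclei in HS and 10.6 and 11.4% in Normal. The regions of the score and the midpoint differ between the conditions, so these shares do not compare HS with Normal. Between 173 and 235 nuclei per library lay within 10% of the midpoint.

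**Figure D2:**
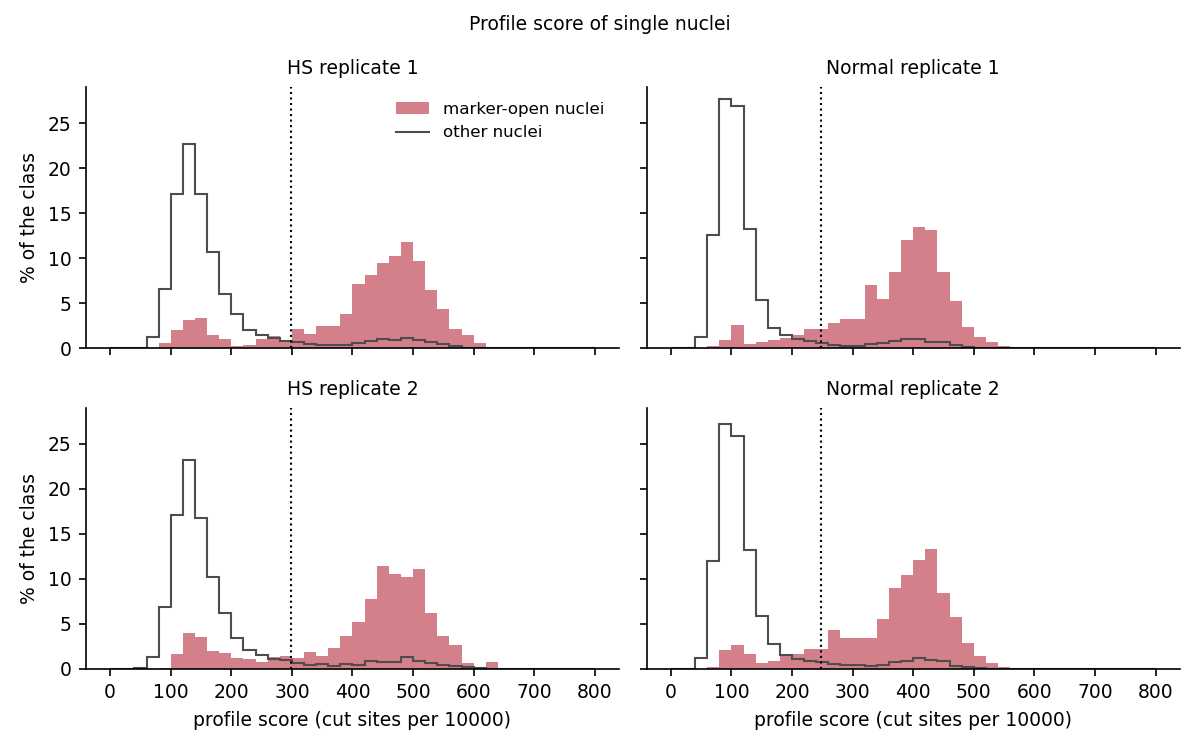
Histograms of the profile score (x axis, cut sites per 10000 in regions chosen in the libraries of the other condition) as a percentage of the class (y axis), filled for marker-open nuclei and outlined for other nuclei, 1 panel per library. The filled histograms peak near their medians of 454 and 455 in HS and 392 and 388 in Normal, with a smaller group of marker-open nuclei left of the dotted midpoint.

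Members and the other nuclei were then compared region by region with cut sites summed per library and class. Of 55482 regions tested away from the marker, 1676 were higher in marker-open nuclei (3.02% of regions tested) and 1917 were lower (3.46%), at an adjusted p of at most 0.01 and a 2-fold difference. The test was the quasi-likelihood test of edgeR with the library as a block and Benjamini-Hochberg adjustment over all regions. Together the higher regions held 366 and 365 cut sites per 10000 in marker-open nuclei of HS and 399 and 386 in those of Normal, against 142, 141, 137 and 141 in the other nuclei of the same libraries. The lower regions held 120 and 121 per 10000 in marker-open nuclei of HS and 114 and 122 in those of Normal, against 292, 294, 291 and 288 in the other nuclei. These sums describe sets picked for their difference. Among regions with a called length alike to within 10% in the 4 libraries, a separate fit called 613 higher (2.77%) and 841 lower (3.8%). With members held to 3 marker cut sites per 10000 the count of lower regions was 3798, and with nuclei of 10000 to 40000 cut sites it was 2891.

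Calls made in the libraries of 1 condition were read in the libraries of the other, which share no sample with them. Of 1882 regions called higher in the Normal libraries alone (3.39% of those tested), 1828 (97.1%) were also higher in marker-open nuclei in both HS libraries. Of 1581 called higher in the HS libraries alone (2.85%), 1536 (97.2%) were higher in both Normal libraries. For lower regions the numbers were 2249 of 2347 (95.8%) called in Normal (4.23% of those tested) and 2114 of 2240 (94.4%) called in HS (4.04%). In both conditions 1257 regions were called higher and 1209 lower, and 0 were called in opposite directions. These were 66.8% of the higher regions called in Normal and 79.5% of those called in HS, and 51.5% and 54.0% of the lower ones. Most regions that set marker-open nuclei apart in 1 condition thus differed in the same direction in the other, and fewer passed both limits there.

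The largest difference was at chr1:21843849-21845607. It had 0.491 and 0.492 cut sites per 10000 in marker-open nuclei of HS and 0.522 and 0.491 in those of Normal, against 0.0536 and 0.0477 in the other nuclei of HS and 0.0434 and 0.0490 in those of Normal. Marker-open and other nuclei were far apart here in all 4 libraries. The log2 difference was 3.38 ± 0.07 (fitted value ± SE), 10.4-fold (edgeR, adjusted p = 2.16e-14). Its gene is not known here, because the sources used here do not name the genome build of the peaks and no annotation of it was held.

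Some of the strongest regions lay side by side. On chromosome 7, chr7:23635369-23636558 had 0.405 and 0.436 per 10000 in marker-open nuclei of HS and 0.414 and 0.382 in those of Normal, against 0.0493, 0.0508, 0.0384 and 0.0415 in the other nuclei of the same libraries (9.20-fold). Its neighbour chr7:23626545-23627791 had 0.476 and 0.479 in marker-open nuclei of HS and 0.469 and 0.480 in those of Normal, against 0.0621, 0.0623, 0.0431 and 0.0462 in the other nuclei (9.08-fold). On chromosome 9, chr9:16257688-16259134 had 0.306 and 0.307 in marker-open nuclei of HS and 0.444 and 0.441 in those of Normal, against 0.0468, 0.0429, 0.0464 and 0.0445 in the other nuclei (8.24-fold). The region beside it, chr9:16260545-16262406, differed 8.19-fold. Such closeness was common among the calls, and 36.6% of higher regions had another higher region within 5000 bp, while 6.14% of all tested regions had a higher region that close. For lower regions the shares were 24.5% and 6.44%.

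The rest of the 10 largest rises differed 7.82-fold to 8.34-fold. They were chr2:14457453-14458464, chr4:13378936-13379886, chr3:1541509-1542381, chr3:9408221-9408997 and chr4:18903602-18905103. The last of these was also the most open of the 10 in HS, at 0.588 and 0.633 per 10000 in marker-open nuclei of HS and 0.411 and 0.461 in those of Normal, against 0.0805, 0.0800, 0.0501 and 0.0550 in the other nuclei. Each of the 10 was read in 15 or 16 alternative fits, and the call was kept in all 153 of these readings.

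The 10 largest fitted falls were mostly at regions with few cut sites. The most open of them in the other nuclei was chr1:22154375-22156100, with 0.0386 and 0.0326 per 10000 in marker-open nuclei of HS and 0.0309 and 0.0431 in those of Normal, against 0.199, 0.200, 0.191 and 0.185 in the other nuclei. Its log2 difference was −2.41 ± 0.10 (edgeR, adjusted p = 2e-11). At chr11:14653255-14654138 marker-open nuclei had 0.0145, 0.0135, 0.00862 and 0.0212 against 0.0750, 0.0738, 0.0732 and 0.0739 in the other nuclei. At chr5:7605793-7606655 they had 0.0145, 0.0147, 0.0201 and 0.0106 against 0.0676, 0.0728, 0.0806 and 0.0795. At chr4:3728217-3729103, the largest fitted fall at a log2 difference of −2.72 ± 0.20, the marker-open nuclei summed to 17 and 12 cut sites in HS and 10 and 11 in Normal. The other 6 of these falls rest on 31 cut sites or fewer in each sum of marker-open nuclei, and for chr10:4135544-4135783 the call was lost in 6 alternative fits, with a called extent of 5 bp in HS replicate 1.

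**Figure D3:**
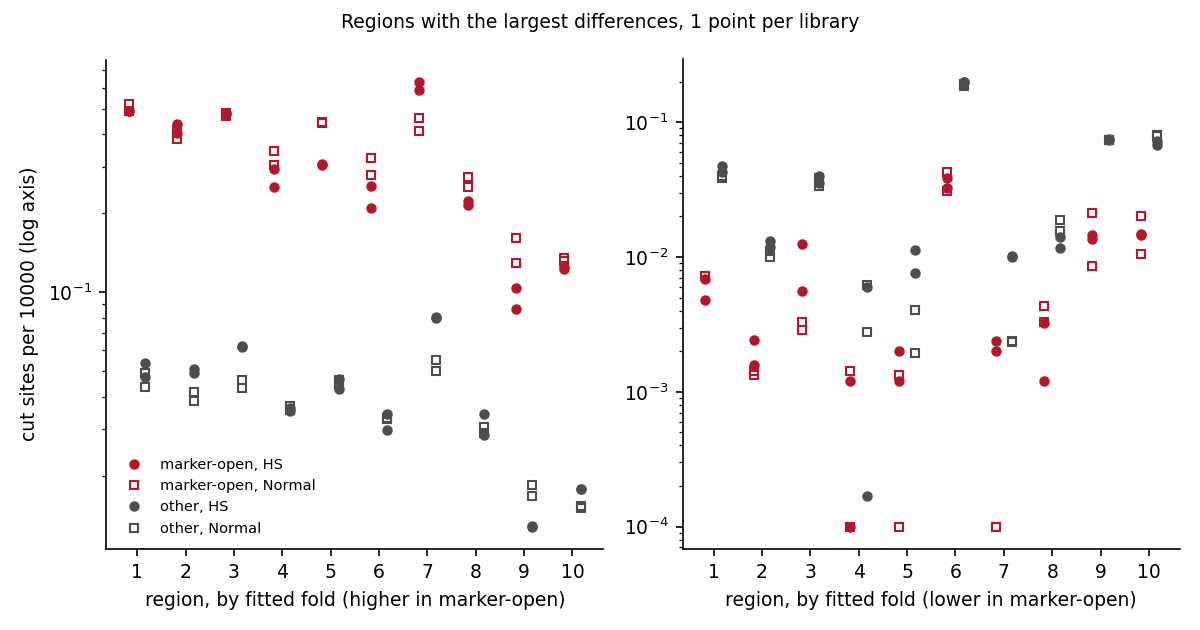
Levels (cut sites per 10000, log axis) of the 10 regions with the largest rise (left) and the 10 with the largest fall (right) in marker-open nuclei, ranked by the fitted fold, 1 point per library and class, with levels of 0 drawn at 0.0001. The regions were picked with marker-open nuclei above (left) or below (right) the other nuclei in each of the 4 libraries. On the left the difference runs from 10.4-fold at rank 1 to 7.82-fold at rank 10. On the right, points of both classes from different libraries overlap at ranks 4, 5 and 7.

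The label endodermis rests on the gene used by the rule, so these data hold no independent check of it, and the markers of the other tissues were read instead. The peak region of LOC_Os01g68589, the study's cortex marker (chr1:40047592-40061423), had 1.68 and 1.54 per 10000 in marker-open nuclei of HS and 1.73 and 1.78 in those of Normal, against 1.01, 0.980, 1.06 and 1.07 in the other nuclei. The log2 difference of 0.72 ± 0.04 (1.65-fold, edgeR, adjusted p = 2.03e-10) passed the p limit but not 2-fold. The region of the stele marker LOC_Os01g15830 (chr1:8930195-8940873) was lower, with 0.881 and 0.840 in marker-open nuclei of HS and 0.799 and 0.676 in those of Normal, against 1.04, 1.04, 0.988 and 0.962 in the other nuclei (log2 difference −0.32 ± 0.05, edgeR, adjusted p = 3.62e-05). The cortex locus was thus more open and the stele locus less open in these nuclei, and endodermis and cortex cannot be told apart by these loci.

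The epidermis marker LOC_Os08g02300 had 3 regions that did not move together. A short one, chr8:869992-870237, was higher (log2 difference 1.84 ± 0.24, 3.57-fold, adjusted p = 1.12e-05 by edgeR), while chr8:865825-869282 differed by −0.46 ± 0.08 and chr8:870884-874600 by 0.30 ± 0.07. The root hair marker LOC_Os10g42750 summed to 0.177 and 0.132 per 10000 in marker-open nuclei of HS and 0.112 and 0.109 in those of Normal, against 0.180, 0.152, 0.175 and 0.184 in the other nuclei. The root cap markers were close in both classes. LOC_Os04g53640 stood at 0.153 and 0.178 in marker-open nuclei of HS and 0.174 and 0.178 in those of Normal, against 0.176, 0.177, 0.178 and 0.191 in the other nuclei (log2 difference −0.07 ± 0.07, edgeR, adjusted p = 0.451), and LOC_Os01g73700 differed by 0.33 ± 0.07 in 1 of its regions and by −0.20 ± 0.15 in the other.

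The study's longer lists of root hair and root cap genes were read in the same way. The study picked these genes from these libraries, so the lists are no independent evidence. Of 1627 regions at root hair genes, 9 were higher (0.553%, beside 3.02% of all regions) and 152 lower (9.34%, beside 3.46%) in marker-open nuclei, with a median log2 difference of −0.38 beside 0.01 over all tested regions. Since the rule itself bars nuclei with high counts at some of these loci, the other nuclei were also held to that limit (1498 of all regions higher, 2.7%, and 1892 lower, 3.41%), and then 12 regions of the list were higher (0.738%) and 51 lower (3.13%) with a median of −0.17. The share of lower calls in the list was then near that of all regions. Of 802 regions at root cap genes, 15 were higher (1.870%) and 12 lower (1.496%), with a median of −0.03.

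The marker-open nuclei were then grouped among themselves, within each condition, by latent semantic indexing and Leiden clustering. There were 11 clusters in HS and 7 in Normal, described here without a test, since clusters are made from the counts they show. Most had a score above the midpoint, from 412 to 582 per library in 8 HS clusters and from 360 to 418 in 5 Normal clusters. They still differed from each other, and the stele locus LOC_Os01g15830 ran from 0.170 to 1.49 per 10000 among these 8 HS clusters and from 0.274 to 1.15 among these 5 Normal clusters. The other 3 HS clusters and 2 Normal clusters had scores under the midpoint and together held 140 (19.0%) and 160 (21.4%) of the marker-open nuclei in HS and 87 (19.0%) and 113 (23.1%) in Normal.

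The clusters of low score differed from each other. HS cluster 5 (172 nuclei) and Normal cluster 3 (174 nuclei) were deep, with medians of 46188 and 42399.5 cut sites in HS and 41758.5 and 41117.5 in Normal, and their marker level was low, at 1.60 and 1.88 per 10000 in HS and 1.91 and 1.86 in Normal. HS cluster 6 (65 nuclei) had the root hair locus LOC_Os10g42750 open, at 1.16 and 0.910 per 10000, and its root hair list summed to 550 and 552 per 10000, against 196 to 224 in the HS clusters of high score. HS cluster 7 (63 nuclei) and Normal cluster 7 (26 nuclei) had the root cap locus LOC_Os04g53640 open, at 1.55 and 1.75 in HS and 1.90 and 1.79 in Normal, and a root cap list of 370 and 382 in HS and 354 and 323 in Normal. LOC_Os10g42750 stood at 0.293 and 0.469 in Normal cluster 7, the highest of the Normal clusters. The root hair list was also above the clusters of high score in the other low-score clusters, at 329 to 384 in HS clusters 5 and 7 and at 278 to 440 in Normal clusters 3 and 7, against 206 to 224 in the Normal clusters of high score. These 3 clusters thus had a root hair or a root cap locus open beside the marker locus of the rule, and whether their nuclei are doublets was not tested.

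**Figure D4:**
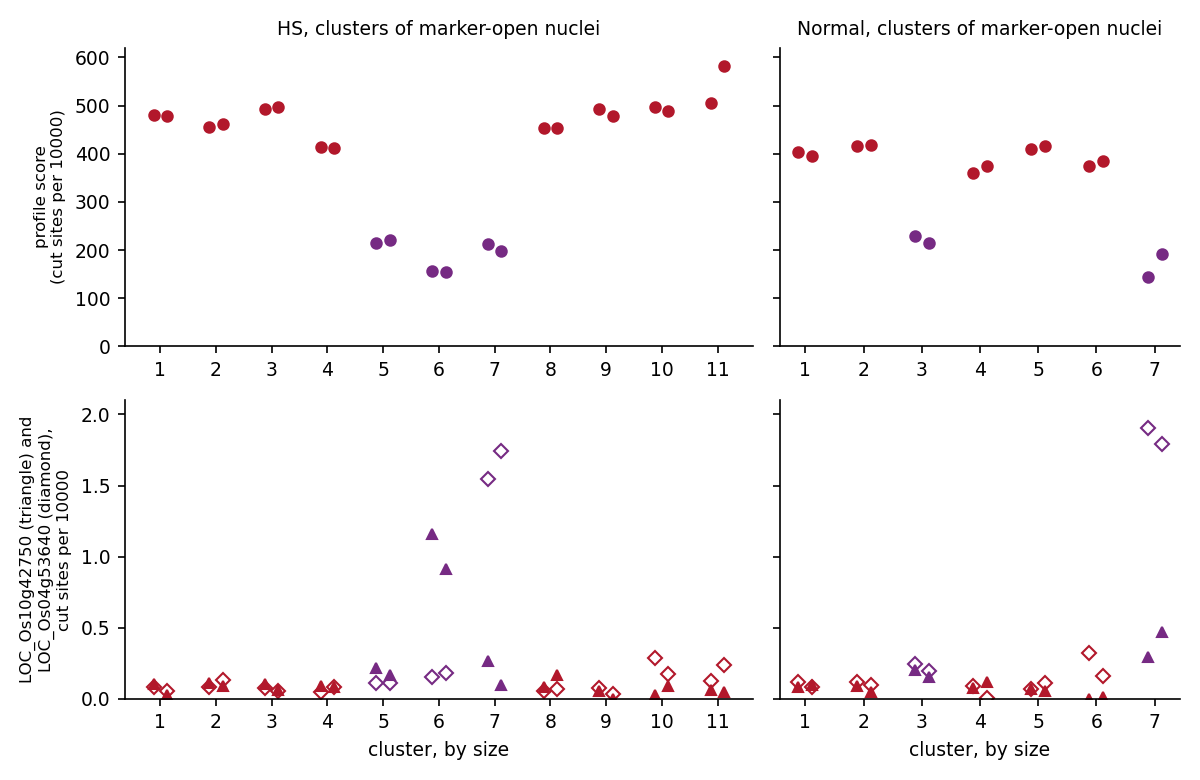
Clusters of marker-open nuclei, numbered by size within HS (left) and Normal (right), 1 point per library. Upper panels give the profile score in cut sites per 10000, with purple for the 5 clusters under the midpoint, and lower panels give the levels of LOC_Os10g42750 (triangles) and LOC_Os04g53640 (diamonds), which stand out in HS cluster 6 (1.16 and 0.910) and in HS cluster 7 and Normal cluster 7 (1.55 to 1.90).

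Without these low-score clusters, the share of marker-open nuclei was 6.82 and 6.48% in HS against 3.47 and 3.50% in Normal, a ratio of 1.91. The level of the cortex locus LOC_Os01g68589 was then 1.96 and 1.78 per 10000 in HS and 1.87 and 1.98 in Normal, above its level in all members. Leaving out the low-score clusters was chosen after seeing the data, here and below.

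Heat was compared within marker-open nuclei, 2 HS sums against 2 Normal sums. Of 54819 regions tested, 1294 were higher (2.36%) and 1329 lower (2.42%) in HS. Most of these calls lay where the called extent of the peak differed too. A library has no counts outside its own peaks, a region that is more open may also be called longer, and these cannot be told apart. In both HS libraries the called extent was longer in 1251 of the 1294 higher regions (96.7%, beside 38.3% of all tested) and shorter in 1276 of the 1329 lower regions (96.0%, beside 36.7%). Where the called length differed by less than 10% between the 4 libraries, a fit to those regions alone called 64 higher (0.289%) and 63 lower (0.285%) of 22132. In the other nuclei the same fits called 1112 higher (2.0%) and 1636 lower (2.95%) in all regions, and 11 (0.0497%) and 7 (0.0316%) in regions alike in length to within 10%, called regions of the same called length below. The other nuclei summed to 236737015 to 278151524 cut sites per library, against 13925943 to 25116181 in marker-open nuclei. Fitted folds are less precise at smaller sums, so these counts do not compare the size of the heat effect between the classes. Nothing in the labels says that the Normal libraries came from separate pools of seedlings, so the p-values measure the spread between these libraries.

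The regions named here had called lengths alike to within 10% in the 4 libraries, though not equal. At the largest rise they were 2984 and 2982 bp in HS against 2734 and 2744 bp in Normal, and at the fall chr10:19948789-19949760 they were 886 and 887 bp against 969 and 969 bp. The largest rise was at chr3:15136273-15139261, which overlaps a stretch that the study's tables place in the promoter of LOC_Os03g25840. It had 0.345 and 0.376 cut sites per 10000 in marker-open nuclei of HS against 0.109 and 0.121 in those of Normal, a log2 difference of 1.66 ± 0.11 (3.15-fold, edgeR, adjusted p = 4.51e-16). The other nuclei had 0.397 and 0.387 in HS against 0.160 and 0.162 in Normal. The most open of these regions, chr9:12875892-12882444, had 0.7501 and 0.7147 in marker-open nuclei of HS against 0.2499 and 0.2663 in those of Normal (log2 difference 1.51 ± 0.08), and 0.660 and 0.659 against 0.239 and 0.247 in the other nuclei. A broad region at chr3:1710975-1714264 had 0.274 and 0.304 in marker-open nuclei of HS against 0.110 and 0.121 in those of Normal (1.33 ± 0.12). Both classes moved in the same direction at these loci.

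At chr5:5972644-5974416, the locus of LOC_Os05g10790 from the study's root cap list, marker-open nuclei had 0.0993 and 0.105 in HS against 0.0266 and 0.0523 in Normal, and the other nuclei had 0.104 and 0.104 against 0.0385 and 0.0437. At chr6:25259122-25261075 marker-open nuclei had 0.139 and 0.132 in HS against 0.0603 and 0.0397 in Normal. At chr5:3652077-3653126 they had 0.0668 and 0.0844 in HS against 0.0323 and 0.0278 in Normal. The regions named for heat were picked for HS and Normal levels that do not overlap in marker-open nuclei.

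The largest fall was at chr8:21622140-21622839, with 0.0125 and 0.0239 in marker-open nuclei of HS against 0.0467 and 0.0609 in those of Normal (log2 difference −1.56 ± 0.29). The most precise was at chr2:11564974-11565935, with 0.0680 and 0.0645 in HS against 0.180 and 0.180 in Normal (−1.43 ± 0.15, edgeR, adjusted p = 1.79e-10), where the other nuclei had 0.0773 and 0.0811 against 0.167 and 0.166. The region chr6:5909280-5910442, at LOC_Os06g11260 of the root hair list, had 0.0430 and 0.0406 in HS against 0.105 and 0.114 in Normal (−1.38 ± 0.18). At chr9:4560364-4560918 marker-open nuclei had 0.0209 and 0.0255 in HS against 0.0574 and 0.0695 in Normal. In the other nuclei the 10 named rises and the 10 named falls all had the same sign. There 9 of the rises and 8 of the falls passed the adjusted p limit of 0.01 (edgeR). Of these, 4 rises and 1 fall also passed 2-fold and were called. The regions had been picked for their fold in marker-open nuclei.

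**Figure D5:**
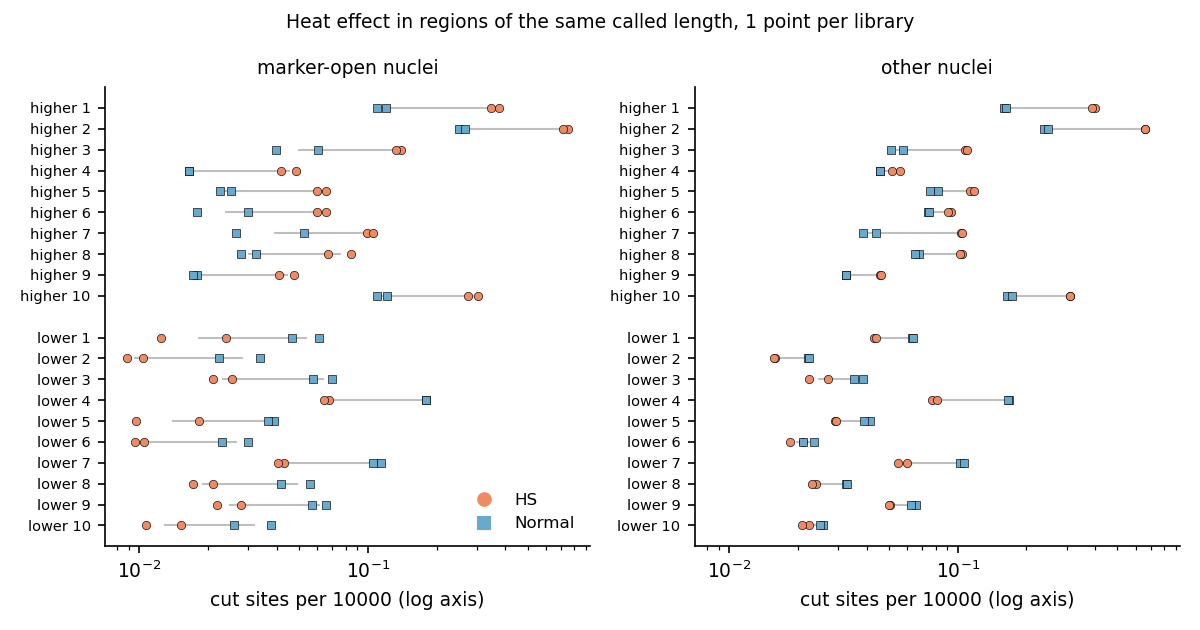
Levels (cut sites per 10000, log axis) of the 10 regions with the largest rise and the 10 with the largest fall in HS among regions with called lengths alike to within 10%, in marker-open nuclei (left) and other nuclei (right), 1 point per library, with a line between the means of HS and Normal. The regions were picked so that HS and Normal points do not overlap in marker-open nuclei. HS against Normal levels there are 0.345 and 0.376 against 0.109 and 0.121 at the first rise. At the last fall they are 0.0153 and 0.0107 against 0.0259 and 0.0378.

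The root hair list held more rises than falls with heat over all marker-open nuclei. Of 1607 regions of the list, 90 were higher (5.60%, beside 2.36% of all regions) and 25 lower (1.56%, beside 2.42%) in HS, with a median log2 difference of 0.16, and the list summed to 254 and 255 per 10000 in HS against 231 and 235 in Normal. Among its 678 regions of the same called length, 6 were higher (0.885%, beside 0.289% of all such regions) and 1 lower (0.147%, beside 0.285%). In the other nuclei 48 of its 1627 regions were higher (2.95%, beside 2.00% of all regions) and 43 lower (2.64%, beside 2.95%). Outside the low-score clusters the list summed to 210 and 209 in HS against 211 and 213 in Normal. Of its 1526 tested regions, 26 were higher (1.70%, beside 2.06% of all regions in that fit) and 29 lower (1.90%, beside 2.00%). Outside those clusters the HS sums of the list were not above the Normal sums. The clusters left out are those in which this list stood highest. They were made separately in each condition from the same counts. Which nuclei carry the rise was therefore not tested, here or below. At chr9:10026374-10028149, the locus of LOC_Os09g16570 from the root hair list, all marker-open nuclei had 0.0656 and 0.0597 in HS against 0.0180 and 0.0298 in Normal, while those outside the clusters had 0.0180 and 0.0140 against 0.0105 and 0.0158. At chr10:20685669-20686580 the levels were 0.0483 and 0.0418 against 0.0165 and 0.0166 in all members and 0.0190 and 0.0134 against 0.00856 and 0.00838 outside the clusters.

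The other 8 named rises kept their call without the low-score clusters, and 4 of the 10 named falls lost it. At chr1:5524627-5525234 the log2 difference was −1.35 outside the clusters (edgeR, adjusted p = 0.0305) and −1.41 in all members, and at chr6:20520381-20520969 it was −1.22 (adjusted p = 0.0521) and −1.39, so these differences stayed close in size. At chr5:18665483-18666052 it was −0.90 (edgeR, adjusted p = 0.241) and −1.53, and at chr4:3508887-3509441 −0.84 (adjusted p = 0.257) and −1.28. At the region upstream of LOC_Os03g25840 the marker-open nuclei outside them had 0.380 and 0.392 in HS against 0.110 and 0.108 in Normal (log2 difference 1.84, edgeR, adjusted p = 5.37e-13). Over all regions that fit called 1096 higher and 1061 lower, and in regions of the same called length 110 higher and 81 lower. Of the 1294 and 1329 calls in all members, 839 and 879 were called again.

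Of the 1676 regions higher in marker-open than in other nuclei, 47 (2.80%, beside 2.36% of all regions) were higher and 108 (6.44%, beside 2.42%) lower in HS, and most were called in neither direction. Of the 606 among them with the same called length, 2 were higher (0.330%, beside 0.298% of all such regions) and 9 lower (1.49%, beside 0.258%). Over the 1676 regions the median log2 difference was −0.15 in marker-open nuclei and −0.02 in the other nuclei, beside a value within 0.01 of 0 over all regions tested. Both this set and the set of lower regions given next were picked with a fit to sums that include those read here. Their shares are thus a description, and neither set was read outside the low-score clusters. Members of the set of higher regions moved both ways. The region chr9:16257688-16259134, given above, was at 0.697-fold in HS (log2 difference −0.52 ± 0.08, edgeR, adjusted p = 3.23e-06), and chr4:18903602-18905103 was at 1.41-fold (0.49 ± 0.07, edgeR, adjusted p = 8.94e-07). Among the 1821 tested regions that were lower in marker-open nuclei, 36 were higher (1.98%, beside 2.36%) and 42 lower (2.31%, beside 2.42%) in HS.

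Whether heat acted differently in marker-open and other nuclei was tested as an interaction. Of 55492 regions, 67 had a heat effect higher in marker-open nuclei (0.121%) and 62 a lower one (0.112%), and DESeq2 called 2 and 3. In regions of the same called length there were 12 (0.0542%) and 13 (0.0587%). The fit was the least steady of all, with 25 to 128 and 28 to 89 calls when single libraries were left out. The named regions rest on few cut sites. At chr4:17430653-17431024 the marker-open nuclei held 4 and 1 cut sites in HS against 16 and 16 in Normal, and the log2 difference of the heat effects was −2.96 ± 0.73. At chr10:841408-842066, at LOC_Os10g02330 and LOC_Os10g02340 of the root hair list, they held 47 and 42 in HS against 11 and 5 in Normal, with a difference of 2.20 ± 0.47, and outside the low-score clusters the difference was 1.06 (edgeR, adjusted p = 0.461). One region of the root hair marker LOC_Os10g42750 (chr10:23340790-23342506) differed by 0.87 ± 0.16 (edgeR, adjusted p = 6.5e-05), under the 2-fold limit. The gene's other regions differed by −0.55 ± 0.71 and 0.12 ± 0.27. A region of the root cap marker LOC_Os01g73700, chr1:42929897-42931587, differed by 0.84 ± 0.22 (edgeR, adjusted p = 0.00681), and the gene's other region by −0.17 ± 0.14. The root cap marker LOC_Os04g53640 differed by −0.03 ± 0.13. The summed level of the LOC_Os10g42750 regions was 0.177 and 0.132 in all marker-open nuclei of HS against 0.112 and 0.109 in those of Normal. Outside the low-score clusters it was 0.0968 and 0.0645 against 0.0809 and 0.0745, where the conditions overlap. Over the root hair list, 10 regions had a heat effect higher in marker-open nuclei (0.615%, beside 0.121% of all regions) and 0 a lower one (beside 0.112%), with a median difference of 0.12. Outside the low-score clusters 3 were higher (0.184%, beside 0.146%) and 12 lower (0.738%, beside 0.204%), with a median difference of −0.07.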

How the data were processed

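Nuclei of 4 root tip libraries were assayed by scATAC-seq, 2 HS and 2 Normal, grouped by their titles. The authors processed the reads with Cell Ranger ATAC 1.2.0, and the deposited values are raw counts of Tn5 cut sites per peak and barcode, not normalized, with 3.72 to 3.92% odd values. The sources used here do not name the genome build, and no sequence or annotation of it was used. Peaks sharing bases were merged into 66332 regions. The tests used the 55496 with a peak in each library, less the 4 of the rule.

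Cut sites were summed per library and class and tested with edgeR 4.0.16 in R 4.3.3 (TMM, filterByExpr, quasi-likelihood test), and a call needed a 2-fold difference at an adjusted p no larger than 0.01. Alternatives included DESeq2 1.42.0. The scripts were tested on simulated data. Clusters used latent semantic indexing of 20 components, 20 neighbours and a Leiden resolution of 0.3 in Python 3.11.15. Regions were named as the 10 largest rises and falls past both limits with the same direction in every library pair, for heat among regions of the same called length, and as the 5 largest in each direction for the difference of heat effects. Marker positions came from the study's tables or were read from its figure axes. Lists of pathway genes could not be placed on these peaks and were not used here. The members and lists were chosen with earlier results of these data known.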

Additional observations from a re-analysis of the deposited data

Results flagged for a closer look

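The heat effect differed between marker-open and other nuclei at 14 named regions by the interaction test of edgeR. The log2 difference of the heat effects, marker-open minus other nuclei, was 2.26 at chr5:24732792-24733307, 2.20 at chr10:841408-842066, 2.15 at chr1:13255203-13255789, 2.04 at chr1:4525910-4527308 and 2.01 at chr7:20306204-20306982. It was −2.96 at chr4:17430653-17431024, −2.41 at chr6:9336439-9336841, −2.26 at chr4:28539667-28540377, −2.12 at chr10:20708710-20709415 and −2.07 at chr3:1401359-1401969. Each of these 10 was read in 14 alternative fits. DESeq2 gave no adjusted p for these regions, so its fit is not among the 14 and not in the readings below. The call was kept in 32 of 70 readings for the rises and 32 of 70 for the falls. Outside the low-score clusters each of the 10 missed the adjusted p limit of 0.01. Among regions named for their heat effect in marker-open nuclei, it was 1.21 at chr10:20685669-20686580, 1.08 at chr9:10026374-10028149, −1.03 at chr8:21622140-21622839 and −0.95 at chr11:27303047-27304032, the last under the 2-fold limit.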

How the results depend on the processing

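In all, 0 named regions reversed. Which direction held more calls did change. Heat in marker-open nuclei gave 1294 higher and 1329 lower, but 1050 and 826 with 8 marker cut sites, 732 and 568 with 3 per 10000 and 1324 and 1112 without Normal replicate 1. The difference of heat effects gave 67 and 62, but 33 and 55 with 10000 to 40000 cut sites and 81 and 113 outside the low-score clusters. Readings were counted over regions and alternative fits. The 10 named rises and 10 named falls of marker-open against other nuclei kept their call in 153 of 153 and 143 of 151 readings. Those of heat kept it in 146 of 160 and 119 of 158. Without a fold limit, calls numbered 9058 higher and 10063 lower for marker-open against other nuclei, 5040 and 4510 for heat, and 957 and 934 for the difference of heat effects, and at an adjusted p of 0.05 this difference gave 146 and 132. In regions of the same called length, where fewer regions are tested, the counts were 613 and 841, 64 and 63, 12 and 13, and, for heat in the other nuclei, 11 and 7 (1112 and 1636 over all regions). With 3 marker cut sites per 10000, lower regions numbered 3798 and the difference gave 29 and 26, and with 10000 to 40000 cut sites there were 2891 lower regions. DESeq2 called 2 and 3 for the difference, and thinning the other nuclei to the sums of the members gave 40 higher. The cause of these moves was not tested. Leaving out single libraries gave 1572 to 1732 higher and 1934 to 2033 lower regions, 1008 to 1433 and 1014 to 1165 for heat, 1027 to 1273 and 1273 to 1973 for heat in the other nuclei, 25 to 128 and 28 to 89 for the difference, and 3.79 to 4.06 points for the share. For the difference these were 28 and 29 without HS replicate 1, 25 and 28 without HS replicate 2, and 128 and 89 without Normal replicate 2.

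Some alternatives were chosen after seeing the data. Outside the low-score clusters, in regions of the same called length, the difference of heat effects gave 29 higher and 34 lower and heat 110 and 81. Leaving out barcodes found in several libraries gave 1685 higher and 1930 lower regions, 1259 and 1291 for heat, and 49 and 56 for the difference.

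The replicate number shared by HS and Normal was not used to pair the libraries in the main fits. The correlation of deviations of equal numbers was −0.00192 in marker-open nuclei and −0.00631 in the other nuclei. Counting error at weak regions can hide a shared deviation, so these values cannot show whether libraries of equal number were handled together. With the number as a block, heat called 1307 higher and 1358 lower in marker-open nuclei and 1084 and 1546 in the other nuclei. The sums of marker-open nuclei in Normal are the shallowest, and small changes at weak regions were not detectable at this depth.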
